A study of Mus musculus with 16 samples.

Results

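In mouse embryonic fibroblasts (MEFs) that lack ATXN7L3, 593 stretches of chromatin of 50 kb or more were each called as a single peak of monoubiquitylated histone H2B (H2Bub1). These domains were chosen by that width alone, from the 28097 autosomal peaks of the H2Bub1 list of Atxn7l3-/- (KO) MEFs. They are 2.11% of those peaks and hold 21.3% of their bases, 46.7 Mb in all. Nearly all of them lay inside long protein-coding genes, mostly running from the gene start towards but not to the gene end, and they held genes such as Ext1, Igf1r, Rbfox2, Tead1 and Cald1. In Atxn7l3+/+ (WT) MEFs the same stretches held short, scattered H2Bub1 peaks that covered a median of 23.4% of a domain, and 0% when peaks with a −log10 q below 3 were left out.

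The study used chromatin immunoprecipitation and sequencing (ChIP-seq) on 4 kinds of mouse cells of DBA/2 x C57BL/6 background: WT and KO MEFs, grown from E10.5 embryos, and WT and KO mouse embryonic stem cells (mESCs), kept in LIF with 2 kinase inhibitors. KO cells are homozygous for a null Atxn7l3 allele and WT cells carry no deletion. The study called the KO cultures from embryos MEF-like and reported an abnormal round shape of many of their cells. From clustering of RNA sequencing data with other cell types and tissues, it proposes that these KO cells are of the fibroblast lineage. Of 16 labelled samples, the 8 peak lists with antibodies against H2Bub1 or against RPB1, the largest subunit of RNA polymerase II (Pol II), were used here, and the inputs and the libraries for Pol II phosphorylated at serine 2 were not analysed here. Each group had 1 library, so nothing below was tested against the spread between replicates, no p-value is given, and intervals cover counting error only.

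H2Bub1 is a single ubiquitin on a C-terminal lysine of histone H2B that the RNF20 and RNF40 ligase adds as Pol II moves through a gene, so that the mark lies over the bodies of transcribed genes. It is removed by the proteases USP22, USP27X and USP51, which need the adaptor proteins ATXN7L3 and ENY2 for their activity, and USP22 acts within the SAGA coactivator. Loss of ATXN7L3 therefore removes a shared cofactor of these deubiquitylases.

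Starts of genes that hold the widest domains, and starts inside genes near the 5′ edge of other wide domains, are printed here. These sequences can so be read beside the values of the domains. They are RefSeq windows on GRCm38.p6, the build of the peaks, from 250 bases before to 50 after the start, on the strand of the gene. Capitals mark a GC box (GGGCGG or, on the other strand, CCGCCC; overlapping matches counted) or a TATA element (TATAAA or TTTATA). Maml2 (chr9:13297708-13298007, plus strand) and Efna5 (chr17:62881268-62881567, minus strand) are the starts of the genes of the domains next in width to that of Ext1, and the Maml2 domain does not reach its gene start. Shroom3 (chr5:92809132-92809431, plus), Kat6b (chr14:21499520-21499819, plus), Srpk2 (chr5:23676411-23676710, minus), Bcar3 (chr3:122419507-122419806, plus) and Nav2 (chr7:49245939-49246238, plus) are starts inside the gene that lie within 2 kb of a domain's 5′ edge, for the 5 widest domains that have one. Ext1, the widest, was not matched.
Maml2: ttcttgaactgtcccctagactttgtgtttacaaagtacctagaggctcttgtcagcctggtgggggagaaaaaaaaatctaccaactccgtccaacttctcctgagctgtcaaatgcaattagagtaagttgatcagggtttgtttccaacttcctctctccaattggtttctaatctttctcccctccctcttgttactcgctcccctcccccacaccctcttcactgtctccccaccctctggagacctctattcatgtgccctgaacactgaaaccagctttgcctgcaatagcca
Efna5: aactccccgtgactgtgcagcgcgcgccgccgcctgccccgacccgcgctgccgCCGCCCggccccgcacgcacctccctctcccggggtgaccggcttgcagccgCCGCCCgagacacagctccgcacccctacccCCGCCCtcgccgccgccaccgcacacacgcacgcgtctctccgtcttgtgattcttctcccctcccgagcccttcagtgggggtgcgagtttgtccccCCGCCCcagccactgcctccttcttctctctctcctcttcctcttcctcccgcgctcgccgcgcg
Shroom3: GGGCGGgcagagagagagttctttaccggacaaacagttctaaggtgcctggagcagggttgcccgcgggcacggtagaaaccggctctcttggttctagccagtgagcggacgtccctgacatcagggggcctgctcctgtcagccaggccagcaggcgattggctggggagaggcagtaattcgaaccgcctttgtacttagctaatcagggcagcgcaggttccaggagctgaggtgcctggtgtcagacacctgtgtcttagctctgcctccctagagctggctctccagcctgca
Kat6b: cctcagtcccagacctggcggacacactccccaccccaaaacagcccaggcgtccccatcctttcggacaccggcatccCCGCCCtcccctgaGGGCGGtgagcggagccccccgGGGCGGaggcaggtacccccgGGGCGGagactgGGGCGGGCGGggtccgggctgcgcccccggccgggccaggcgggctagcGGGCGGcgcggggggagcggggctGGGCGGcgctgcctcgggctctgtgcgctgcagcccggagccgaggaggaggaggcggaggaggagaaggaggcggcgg
Srpk2: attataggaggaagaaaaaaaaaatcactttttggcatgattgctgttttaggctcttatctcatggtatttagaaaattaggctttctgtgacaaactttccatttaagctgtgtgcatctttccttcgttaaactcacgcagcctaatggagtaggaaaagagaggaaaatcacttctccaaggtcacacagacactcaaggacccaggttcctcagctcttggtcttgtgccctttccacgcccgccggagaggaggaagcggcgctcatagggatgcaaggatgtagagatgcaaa
Bcar3: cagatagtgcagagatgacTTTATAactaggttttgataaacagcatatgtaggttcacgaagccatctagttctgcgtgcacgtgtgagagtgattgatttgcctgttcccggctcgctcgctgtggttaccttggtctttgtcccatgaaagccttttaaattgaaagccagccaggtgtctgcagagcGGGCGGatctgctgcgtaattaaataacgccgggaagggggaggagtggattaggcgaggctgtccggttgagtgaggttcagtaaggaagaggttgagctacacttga
Nav2: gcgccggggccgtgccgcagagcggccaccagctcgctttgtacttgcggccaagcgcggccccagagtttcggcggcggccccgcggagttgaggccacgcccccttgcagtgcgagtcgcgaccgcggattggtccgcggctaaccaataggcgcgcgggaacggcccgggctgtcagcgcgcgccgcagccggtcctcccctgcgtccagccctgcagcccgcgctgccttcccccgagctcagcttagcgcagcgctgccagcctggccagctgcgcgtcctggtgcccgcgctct
The windows are unlike each other. Kat6b had 8 GC boxes and 32 CG dinucleotides in 300 bases and Efna5 had 4 and 38, whereas the Maml2 start had 0 GC boxes and 2 CG dinucleotides and the inner start of Srpk2 had 0 and 7. Nav2 held 42 CG dinucleotides without a GC box of these letters, and Bcar3 alone of the 7 held a TATA element. A match is a description of letters in the window and not a binding site.

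Over all genes of domains, 366 of 554 had a RefSeq start within 1000 bp of the start used here. GC boxes were found in 298 of these windows (81.4%, exact 95% interval 77.1 to 85.3%), TATA elements in 16 (4.37%), and the median number of CG dinucleotides was 29.5. Long genes with Pol II at the promoter in KO MEFs and without a domain had GC boxes somewhat less often, in 74.9% (72.8 to 77%), with TATA elements in 4.58% and a median of 25 CG over 1680 windows. Both had more GC boxes than the 32851 mouse promoters of the table as a whole, of which 35.7% held a GC box, 13.6% a TATA element, and the median held 7 CG.

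The domains ranged from 50 to 245.9 kb in width, with a median of 68.2 kb and quartiles of 57.2 and 88.0 kb, against a median of 2.67 kb for the other 27504 autosomal peaks of the same list. Of the 593, 97 reached 100 kb, 27 reached 150 kb and 6 reached 200 kb. At the threshold, which is a point on a continuous range, the narrowest domains were those of Apbb2 (50.16 kb), Rnf217 (50.04 kb) and Smurf2 (50 kb, just over), and the peaks just too narrow were those of Cbl (49.95 kb), Kat6a (49.95 kb) and Asxl1 (49.92 kb). Width chose the domains, so it supports nothing by itself. The deposited fold enrichment, the mean pileup over local background along the peak, had a median of 3.94 in the domains (range 2.36 to 7.58). It was 4.06 in the 2237 peaks of 20 to 50 kb and 2.31 in all other autosomal peaks, so the domains stood out from their next narrower neighbours by length and not by height. The other 3 H2Bub1 lists held few autosomal peaks of this width, namely 2 (WT MEFs), 4 (WT mESCs) and 76 (KO mESCs).

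The lists differ in size and their read depth is unknown, which bears on every cover value below. The H2Bub1 lists held 28856 peaks in KO MEFs, 19725 in WT MEFs, 48952 in KO mESCs and 40979 in WT mESCs. The Pol II lists held 32232, 45870, 11963 and 17074 peaks in the same order. Fibroblast markers had Pol II at the promoter in MEFs (10 of 10 in WT, 9 of 10 in KO, where Postn had none) and in neither kind of mESC. The promoter fold of the other 9 was lower in KO than in WT MEFs in each case, for example 18.1 against 49.2 at Col3a1, 8.80 against 21.9 at Pdgfrb and 5.84 against 18.5 at Prrx1. Markers of epithelial and mesothelial cells had Pol II at 0 of 10 promoters in WT MEFs and at 5 of 10 in KO MEFs. These 5 were Crb2, Wt1, Upk3b, Upk1b and Msln, with promoter folds of 10.2 to 38.6. Krt8, Krt18, Krt19, Cdh1 and Epcam had none in either MEF list. The KO MEFs thus carried Pol II at some markers of another cell type that the WT MEFs lacked. Of the blood markers, 1 of 4 had Pol II in WT and 3 of 4 in KO MEFs, and of the pluripotency markers 1 and 2 of 7. Of the endothelial markers it was 1 of 4 in WT and 1 of 4 in KO MEFs. None of these marker genes held a domain, and the part of cell composition in any result below was not tested. At Atxn7l3 itself (chr11:102289300-102296631), Pol II peaks stood at the promoter in both MEFs (fold 20.9 in WT and 23.4 in KO) and both mESCs (3.61 and 3.71). The promoter lies outside the exons that the loxP sites flank, exons 2 to 12, so these peaks do not check the genotype. Over the span from exon 2 to exon 12 (chr11:102291898-102295059), H2Bub1 peaks covered 21.6% in WT and 19.6% in KO MEFs, and 100% in WT and 13.0% in KO mESCs. Pol II peaks covered 19.3% and 10.9% of it in the MEFs and 20.7% and 11.9% in the mESCs. Peaks thus reached into this span in the KO lists, at its edges in the H2Bub1 lists, and with the low WT MEF cover the MEF lists do not check the deletion. Genotypes here are taken from the labels.

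The domains were single-gene features. Of the 593, 586 overlapped a protein-coding gene, and 547 (92.2%, 89.8 to 94.3%) had at least 90% of their bases inside 1 gene. One gene was overlapped by 499 domains, 2 genes by 75, 3 by 8 and 4 by 4. The gene that held most of a domain is called its gene here, and there were 554 of them, of which 10 were shorter than 50 kb. They were long, with a median of 126.1 kb (quartiles 87.9 and 198.0 kb), and the domain took a median of 56.0% of the gene, which came to 74.96% with all KO MEF H2Bub1 peaks counted. Exons made up 3.07% of domain bases, against 7.33% in peaks of 20 to 50 kb and 11.1% in the other peaks. The domains lie largely over introns.

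The widest domain spanned 245.9 kb (chr15:53102030-53347903) and took in 86.5% of the 282.1 kb of Ext1, which encodes a glycosyltransferase that builds heparan sulfate chains. H2Bub1 peaks covered 34.3% of this stretch in WT MEFs, 5.99% in WT mESCs and 22.9% in KO mESCs. Pol II peaks covered 12.1% of it in WT and 1.44% in KO MEFs.

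The next was different in place and in the other lists. It lay in Maml2 (chr9:13414382-13645970, 231.6 kb), a coactivator of Notch signalling, and began 116.4 kb inside the gene. WT MEF H2Bub1 covered 1.78% of it and both mESC lists 0%, and Pol II covered 0.868% in WT and 0.262% in KO MEFs. Efna5 (chr17:62667406-62884655, 217.2 kb), which encodes an ephrin ligand of Eph receptors, began at −3.34 kb from the gene start and had little H2Bub1 elsewhere: 7.78% in WT MEFs, 0.706% in WT mESCs and 0.760% in KO mESCs. Both stretches held little H2Bub1 in the other 3 lists.

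Igf1r (chr7:67950804-68165876, 215.1 kb), the receptor for insulin-like growth factor, was covered to 37.2% in WT MEFs, 11.7% in WT mESCs and 41.4% in KO mESCs. Asap1 (212.0 kb), an Arf GTPase-activating protein, was covered to 26.0%, 5.64% and 31.8% in the same order. Rbms1 (201.0 kb), an RNA-binding protein, completed the 6 domains over 200 kb with 35.1%, 0.164% and 19.6%. In WT MEFs H2Bub1 lay in each of these 3 over 26.0% or more of the stretch.

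Of the next 14 domains, several lie in genes of transcriptional regulators. Etv6, an ETS repressor, held 189.4 kb, of which 33.3% was in WT MEF, 3.403% in WT mESC and 10.53% in KO mESC H2Bub1. Tead1, the DNA-binding partner of YAP, held 183.7 kb and was the most covered of these in mESCs, at 32.3% in WT MEFs, 78.2% in WT mESCs and 92.2% in KO mESCs. Domains of similar width thus ranged from mostly empty to nearly full in mESCs. Cux1 (199.0 kb) and Rere (187.8 kb), a homeodomain factor and a corepressor, were covered to 35.8% and 63.6% in KO mESCs. The splicing regulator Rbfox2 (196.6 kb) was covered to 31.8% in WT MEFs and 63.0% in KO mESCs.

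Foxn3 (186.1 kb) and Zfhx3 (161.6 kb), both transcription factors, had their domains 168.2 kb and 756.4 kb downstream of the annotated gene start, and both were over 70% covered in KO mESCs (72.2% and 79.0%). The domain of 184.9 kb assigned to the record Gm20696 also holds the start of Foxp1, a forkhead factor, with its 5′ edge at −3.69 kb from that start. It had 0% in both mESC lists and 6.17% in WT MEFs. Agap1 (173.9 kb), a regulator of Arf GTPases and endosomal traffic, reached 52.7% in WT MEFs and 88.2% in KO mESCs, Atxn1 (167.1 kb) 3.81% and 31.1%, and Zfand3 (167.0 kb) 67.5% and 42.8%. Mast4 (166.4 kb), a serine/threonine kinase, was free of H2Bub1 peaks in the other 3 lists, and Pol II covered 0.517% in WT and 1.34% in KO MEFs.

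The other 7 domains overlapped no gene that the annotation types as protein-coding. The widest (chr15:62037404-62217303, 179.9 kb) lay over the long noncoding RNA gene Pvt1, next to Myc, and was covered to 33.3% in WT MEFs, 51.6% in WT mESCs and 79.8% in KO mESCs. A pair of adjacent domains on chromosome 6, of 99.1 and 84.3 kb, lay over the noncoding gene Lncpint. Domains of 90.05 and 84.96 kb lay over Trerf1 and Zswim6, which are known as protein-coding genes but carry a noncoding type in this annotation. The remaining 2, of 75.4 and 69.8 kb, lay over noncoding records. Few domains held 4 genes. A domain of 54.1 kb covered Hoxb3, Hoxb4, Hoxb5 and Hoxb6, homeobox genes of body patterning. It had no WT MEF and no WT mESC H2Bub1, although Pol II covered 68.8% of it in WT and 45.2% in KO MEFs. The other domains over 4 genes were led by Egln1 (63.7 kb), an oxygen-sensing prolyl hydroxylase, Rabgap1 (56.9 kb) and the read-through record Gm21992, which joins Rbm14 and Rbm4.

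Some genes held more than 1 domain: 24 held 2 and 4 held 3. Ldlrad4, an inhibitor of TGF-beta signalling, is 335.4 kb long and held 3 whose widths sum to 230.9 kb, and Lhfp is 220.2 kb long and held 3 that sum to 187.9 kb. The 3 of Mast4, a gene of 602.0 kb, sum to 337.6 kb. These sums include the short stretches upstream of the gene start. The remaining record, Gm20388, is a read-through of 4435 kb whose 3 domains have Ankrd11, Zcchc14 and Piezo1 as their genes when such records are left out.

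Most domains began at the gene start. With upstream distances negative, the 5′ edge lay at a median of −0.407 kb from it (quartiles −1.41 and 0.116 kb), within 5 kb of it in 423 of 586 domains (72.2%), and 408 (69.6%, 65.7 to 73.3%) held the start. The 3′ edge, in contrast, lay at a median of −44.2 kb from the gene end, that is short of it (quartiles −96.3 and −18.2 kb). Only 27 domains (4.61%, 3.06 to 6.63%) reached the gene end and 53 (9.04%) came within 5 kb of it. A gene with a domain therefore typically had it from the gene start to some way short of the gene end.

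**Figure D1:**
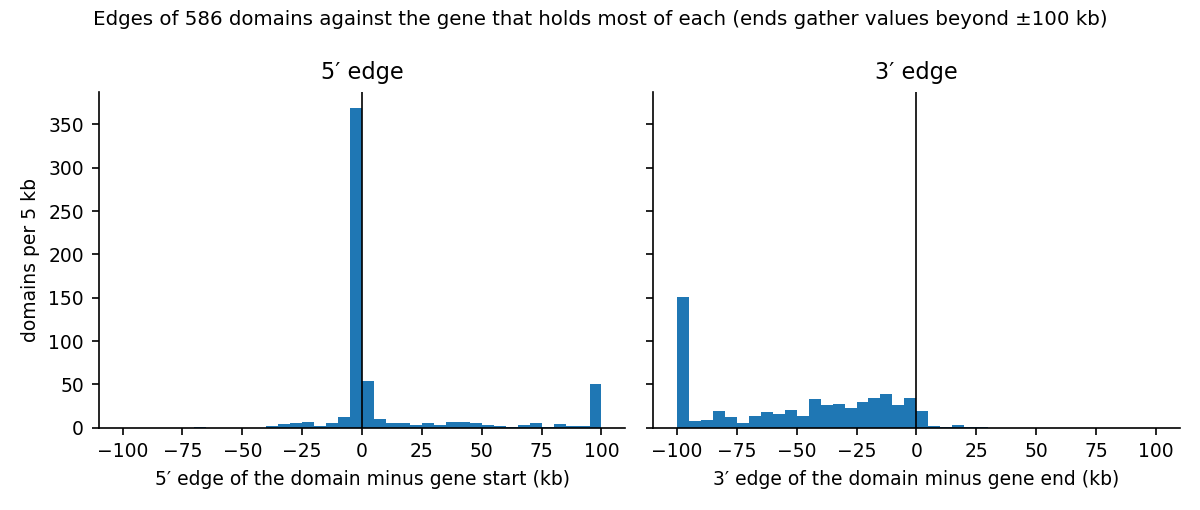
Number of domains per 5 kb of distance from the 5′ edge to the gene start (left) and from the 3′ edge to the gene end (right), for the 586 domains with a protein-coding gene; negative values are upstream, and the outermost bars gather values beyond 100 kb. The left plot has one narrow peak at 0, with 423 domains within 5 kb, and the right plot spreads widely before the gene end.

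Domain width was set against gene length as a description only, since the rule fixes part of it: a domain has at least 50 kb, so a short gene must be filled to a large part, and few domains reach past their gene. In 343 domains that hold the start and overlap 1 gene, the Spearman rank correlation of width with gene length was 0.51. The 119 in genes of 50 to 100 kb had a median width of 60.0 kb and filled a median of 81.6% of the gene. The 97 in genes of 100 to 150 kb had 73.2 kb and 59.3%, and the 52 in genes of 150 to 200 kb had 83.3 kb and 48.2%. In the 48 genes of 200 to 300 kb the median was 80.2 kb (34.6%), and in the 26 of 300 kb or more 99.0 kb (22.3%).

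A smaller class of 124 domains (21.2%) began over 5 kb inside the gene, and 39 (6.66%) began over 5 kb upstream. The inner ones were as wide, with a median of 66.5 kb against 67.3 kb for those at the gene start, and had less H2Bub1 in the other lists. Their median cover was 10.8% in WT MEFs, 3.08% in WT mESCs and 22.7% in KO mESCs, against 28.8%, 12.9% and 54.0% in domains at the gene start. H2Bub1 was absent from 20 of the 124 in the WT MEF list, against 24 of 423.

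Edges were set against Pol II and annotated transcript starts within 2 kb. Of the 423 domains at the gene start, 405 (95.7%) had KO MEF Pol II at the 5′ edge and 45 (10.6%) at the 3′ edge. Of the 124 inner domains, 54 (43.5%, 34.7 to 52.7%) had it at the 5′ edge and 14 (11.3%) at the 3′ edge. The inner 5′ edges lay at an annotated transcript start of the gene in 40 cases (32.3%, 24.2 to 41.2%), against 20 (16.1%) for the 3′ edges, and 37 (29.8%) had both a start and KO MEF Pol II. Another 33 (26.6%) had neither but followed another KO MEF H2Bub1 peak by less than 2 kb. The inner edges thus divide into those at a transcript start or a Pol II peak, those right after another H2Bub1 peak, and a remainder with none of these, to which the Maml2 domain belongs.

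The inner starts printed above belong to the first kind. The Shroom3 domain (112.2 kb), in a gene for an actin-binding regulator of cell shape, began at −490 bp from its inner start, which had Pol II in KO but not in WT MEFs; WT MEF H2Bub1 covered 0% and KO mESC H2Bub1 50.6% of it. In Kat6b (95.05 kb), a histone acetyltransferase, the edge lay at −838 bp from the inner start, the one with 8 GC boxes, and H2Bub1 covered 20.7% in WT MEFs, 86.5% in WT mESCs and 96.4% in KO mESCs. Pol II in the Kat6b domain covered 3.00% in WT and 10.7% in KO MEFs. The domains of Srpk2, a kinase of splicing factors (91.3 kb), and Bcar3, a signalling adaptor (86.7 kb), began 8 and 73 bp downstream of theirs, and that of Nav2 (84.9 kb) at −140 bp. RefSeq gave such a start for 26 of the 124. GC boxes were found in 17 of these 26 windows (65.4%), TATA elements in 4 (15.4%) and the median number of CG dinucleotides was 18.5, between the gene starts of domains (29.5) and all promoters (7).

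In base composition the domains were close to narrower peaks. GC content was 44.5% over domain bases, 44.3% in peaks of 20 to 50 kb and 42.4% over the bodies of all long genes, with 11.7, 12.4 and 9.09 CG dinucleotides per kb. Single domains ranged from 37.0 to 56.1% GC. Repeats made up 23.2% of domain bases, 25.7% in peaks of 20 to 50 kb and 27.4% in long gene bodies. Per 100 long genes, chromosome 8 had the most domains (20.4) and chromosome 9 the fewest (8.78).

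In WT MEFs, 547 domains (92.2%, 89.8 to 94.3%) held at least 1 bp of an H2Bub1 peak, against 27.2% of all autosomal KO MEF H2Bub1 peaks and 84.7% of those of 20 to 50 kb. A wide region meets a peak more easily than a narrow one, so the cover of bases is the better measure. The median domain was covered to 23.4% (quartiles 8.34 and 46.7%), by a median of 7 WT peaks, and the peaks of 20 to 50 kb to 22.1%. At this cover, the WT MEF list had short separate peaks where the KO list had 1. With only WT peaks of −log10 q of 3 or more, the share with a peak fell to 28.1% and the median cover to 0%, so in most domains the WT MEF cover comes from peaks below that value. In bulk chromatin, a mark in few cells and a weak mark in all cells cannot be told apart.

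In mESCs the same stretches were marked too. WT mESC peaks met 523 domains (88.2%, 85.3 to 90.7%; 38.7% of all KO MEF peaks) with a median cover of 10.2% (quartiles 2.56 and 29.6%). KO mESC peaks met 552 (93.1%, 90.7 to 94.99%; 51.9% of all) with a median of 48.4% (19.7 and 78.5%). KO mESC cover exceeded WT mESC cover in 549 of 593 domains and fell below it in 9, against 46.4% and 5.82% of all autosomal KO MEF peaks. In the 20 to 50 kb peaks the shares with a peak were 83.6% and 91.15% and the medians 12.9% and 49.2%. Here too the domains thus differ little from their narrower neighbours. The stricter −log10 q of 3 lowered these medians to 1.201% (WT) and 16.6% (KO).

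**Figure D2:**
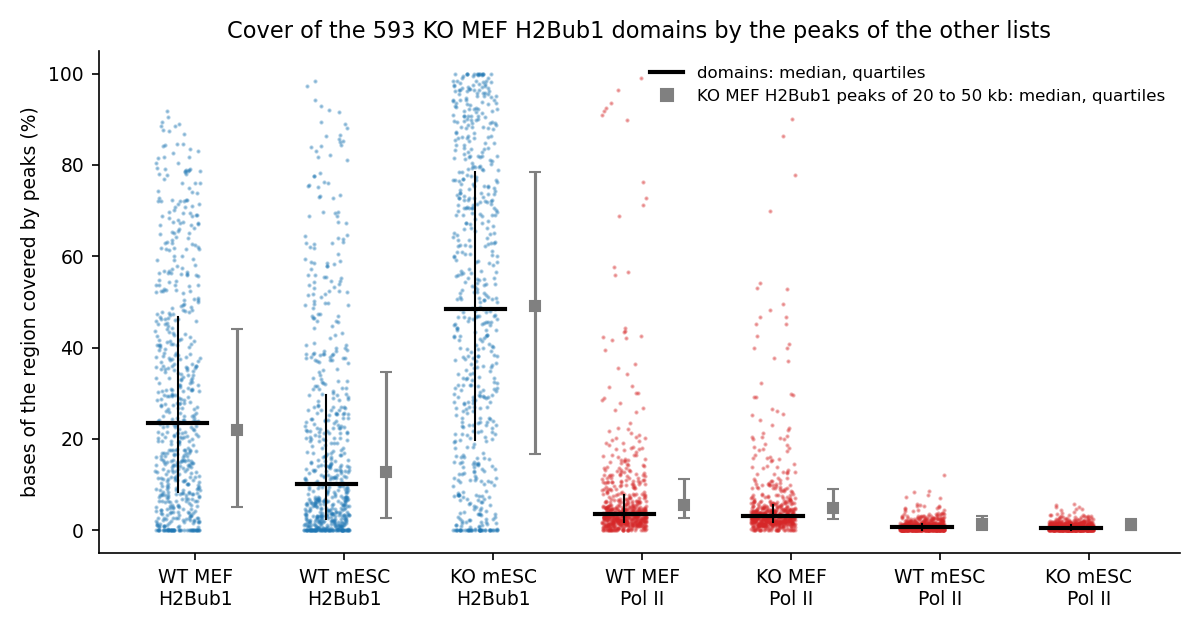
Share of bases covered by the peaks of each of the other 7 lists, with a point per domain, the median and quartiles of the 593 domains in black and those of KO MEF H2Bub1 peaks of 20 to 50 kb in grey. Median H2Bub1 cover is 23.4% for WT MEFs, 10.2% for WT mESCs and 48.4% for KO mESCs, with a wide spread in each, and median Pol II cover is below 4% in all lists.

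Cover of 50% or more was reached by 134 domains in WT MEFs (22.6%, against 6.13% of all KO MEF peaks), 80 in WT mESCs (13.5%, against 13.6%) and 291 in KO mESCs (49.1%, against 31.9%), and by 36 in all 3. In the peaks of 20 to 50 kb the shares were 20.6%, 15.7% and 49.1% in the same order, close to those of the domains. The fullest in WT MEFs were Gatad2b, a subunit of the NuRD complex (91.8%), Fbxo11, a ubiquitin ligase subunit (90.5%), and the domain over Ankrd11, a chromatin-associated regulator (89.3%). In WT mESCs they were Uck2, a uridine kinase (98.3%), Ago2, the slicer of RNA interference (97.4%), and the factor Klf13 (94.1%). KO mESC peaks covered 12 domains whole, the widest of them in Cmip (160.3 kb) and Nxn (121.6 kb), and also those of Uck2 and Klf13. In Cmip the values were 78.8% in WT MEFs and 89.0% in WT mESCs.

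At the other end, 46 domains had no WT MEF peak, 70 no WT mESC peak and 41 no KO mESC peak. Such absence was more common over all autosomal KO MEF H2Bub1 peaks, of which only 27.2%, 38.7% and 51.9% met these lists. The 15 domains with none in any of the 3 lists lay in Mast4 (2 domains), Gpr39 (2), Hivep3 (2), Plxna4, Mical2, Arhgap18, Rin2, Lhfp, Sox5, Rcan2, St3gal1 and Smpd3. The share with none in any of the 3 lists was not taken over all KO MEF peaks. The widest domains without WT MEF H2Bub1 were in Mast4, Plxna4 (143.4 kb, a semaphorin receptor) and Atxn1 (its second domain, 132.5 kb). Promoter Pol II was still called for 33 of these 46 domains in WT MEFs and for 41 in KO MEFs. Over all domains with a gene, a WT MEF H2Bub1 peak was missing in 13 of the 49 without promoter Pol II in WT MEFs and in 33 of the 537 with it, so domains without the WT mark more often lacked Pol II at the promoter.

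The cover was uneven along a domain. Around the starts of the 408 genes whose domain holds the start, WT MEF H2Bub1 covered 40.5% of bases in the first 2 kb, 47.8% at 6 to 8 kb and 24.1% at 48 to 50 kb. WT mESC cover fell from 64.1% to 30.4% and 15.5% over the same bins, and KO mESC cover from 89.0% to 68.7% and 41.4%. KO MEF cover is complete over the domain by construction and dropped to 52.0% in the 2 kb upstream. Cover in the other 3 lists thus declined gradually with distance, and in these bins its highest value lay beyond the first 2 kb in WT MEFs and within it in both mESC lists. Pol II peaks were far narrower, with 66.1% (WT MEF), 62.6% (KO MEF), 20.3% (WT mESC) and 18.7% (KO mESC) of bases in the first 2 kb, and 6.14% and 4.33% in WT and KO MEFs at 6 to 8 kb.

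Each domain was also scaled to its own width. WT MEF H2Bub1 covered 26.5% of the first 5% of the domain, reached 45.3% at 15 to 20% and ended at 12.6%. KO mESC H2Bub1 was at 71.4% in the first 5%, 72.3% in the next 5% and 31.0% in the last, and WT mESC H2Bub1 fell from 43.0% to 13.4%. Pol II fell from 47.9% to 7.25% in WT MEFs and from 42.8% to 4.35% in KO MEFs.

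Pol II stood at the promoters of most genes with a domain. A promoter peak, within 1000 bp of the gene start, was called for 508 of 554 genes in WT MEFs (91.7%, 89.1 to 93.9%; 63.6% of the 4787 autosomal protein-coding genes of 50 kb or more) and 511 in KO MEFs (92.2%, 89.7 to 94.3%; 59% of long genes). In mESCs it was 364 in WT (65.7%; 40.1% of long genes) and 366 in KO (66.1%; 38.5%). The median fold of these promoter peaks was 16.2 in WT and 14.1 in KO MEFs, against 12.7 and 10.9 in long genes without a domain, and 4.32 and 4.80 in the mESCs, against 4.31 and 4.53. The 2 MEF lists therefore named nearly the same promoters for these genes: 504 had Pol II in both lists, 4 were called in WT alone and 7 in KO alone, against 6.6% and 1.92% of long genes.

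The 7 genes with promoter Pol II in KO MEFs only included Tmem108, Gpr39 (a G protein-coupled receptor), Ptk2b (a focal adhesion family kinase), Mbp (myelin basic protein), Fam184a and Smpd3 (a neutral sphingomyelinase). Their 8 domains were all at 0% in WT MEF H2Bub1. In KO mESCs the Mbp domain was covered to 85.4%, and those of Tmem108, Gpr39, Ptk2b, Fam184a and Smpd3 to at most 3.74%. The 4 with Pol II in WT MEFs only, Mical3, Dab2ip, Asap2 and Tns1, had inner domains that began 20.8 to 121.0 kb downstream of the promoter tested, and all were covered to over 80% in KO mESCs. No promoter Pol II in KO MEFs was called for Zfhx3, Macf1 (156.2 kb, a cytoskeletal crosslinker) and Rbms3 (148.1 kb), which also had inner domains. Peaks at other starts of these genes are not counted in the promoter figures.

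Among long genes, those with promoter Pol II in KO MEFs held a domain more often. It was 501 of 2822 (17.8%, 16.4 to 19.2%) with such a peak and 43 of 1965 (2.19%) without. With Pol II in both MEFs it was 494 of 2730 (18.1%), in KO only 7 of 92 (7.61%) and in WT only 4 of 316 (1.27%). Pol II at a promoter was thus common to the domains but most long genes with it had no domain. Pol II in mESCs went with the mark in mESCs in the same way: the 385 domains whose gene had promoter Pol II in KO mESCs had a median KO mESC H2Bub1 cover of 55.0%, and the 201 without had 31.1%. In WT MEFs, H2Bub1 covered 24.1% in the 537 with promoter Pol II and 10.2% in the 49 without.

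Over the whole of a domain, Pol II peaks covered little. Pooled over all domain bases they covered 7.54% in WT and 5.94% in KO MEFs, less than in peaks of 20 to 50 kb (10.6% and 8.43%) and in all other peaks (13.0% and 10.3%). The median domain had 3.56% and 3.08%, with a median of 2 peaks in each. At least 1 Pol II peak was found in 565 domains in WT MEFs (95.3%; 41% of all KO MEF H2Bub1 peaks), 567 in KO MEFs (95.6%; 38.6%), 404 in WT mESCs (68.1%; 23.2%) and 401 in KO mESCs (67.6%; 20.9%). In the peaks of 20 to 50 kb the shares were 88.1%, 87.6%, 62.9% and 59.8% in the same order. KO cover was above WT cover in 187 domains and below it in 391, against 12.7% and 30% of all KO MEF peaks, most of which hold no Pol II peak. Of the 2237 peaks of 20 to 50 kb, 625 were above and 1391 below, shares close to those of the domains. In mESCs it was above in 179 and below in 273, against 8.25% and 17.8%. The KO MEF Pol II list also has fewer peaks in all. With equal numbers of peaks taken from both lists, the pooled cover was 6.38% in WT and 5.94% in KO MEFs. Depth cannot be told apart from a loss of Pol II peaks here.

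Single domains moved further in both directions. Pol II cover was lower by 20 percentage points or more in KO MEFs in 21 domains (3.54%, against 6.77% of all KO MEF H2Bub1 peaks) and higher by as much in 10 (1.69%, against 2.06%). Of the 21, 8 lie in genes of the actin and adhesion list described further on, which holds 22 of all 593 domains. Myh9, nonmuscle myosin heavy chain, went from 99.0% in WT to 53.0% in KO MEFs, and Cald1, the actin-binding caldesmon (150.3 kb), from 92.5% to 46.8%. Actn1, alpha-actinin, went from 90.9% to 29.6%, Palld, palladin, from 76.2% to 12.4%, and Vcl, vinculin, from 71.31% to 39.97%. The cadherin Cdh11 went from 91.9% to 39.8%, the kinase Nuak1 from 96.3% to 37.7%, Pmepa1, a TGF-beta target, from 93.5% to 32.2%, and the factor Nfix from 56.6% to 5.66%. Each of these stretches is 1 H2Bub1 peak in KO MEFs, with Pol II peaks over less of it than in WT MEFs.

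The 10 that gained include Ypel2, from 2.80% in WT to 86.4% in KO MEFs, and Spsb1, a ubiquitin ligase adaptor, from 12.7% to 69.8%. A domain of 135.3 kb that runs over the start of Col4a2 and into Col4a1, the paired basement membrane collagen genes, went from 18.7% to 77.8%. Mical2, an actin oxidase, went from 17.8% to 54.1%, Cnksr3 from 4.45% to 52.9% and Bicc1, an RNA-binding protein, from 0.335% to 29.9%. Of these, Ypel2 and Spsb1 had domains that H2Bub1 covered almost whole in KO mESCs (95% and 94.5%), while Mical2 had 0% in all 3 other H2Bub1 lists. These genes were picked for their Pol II values, which are given as a description.

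**Figure D3:**
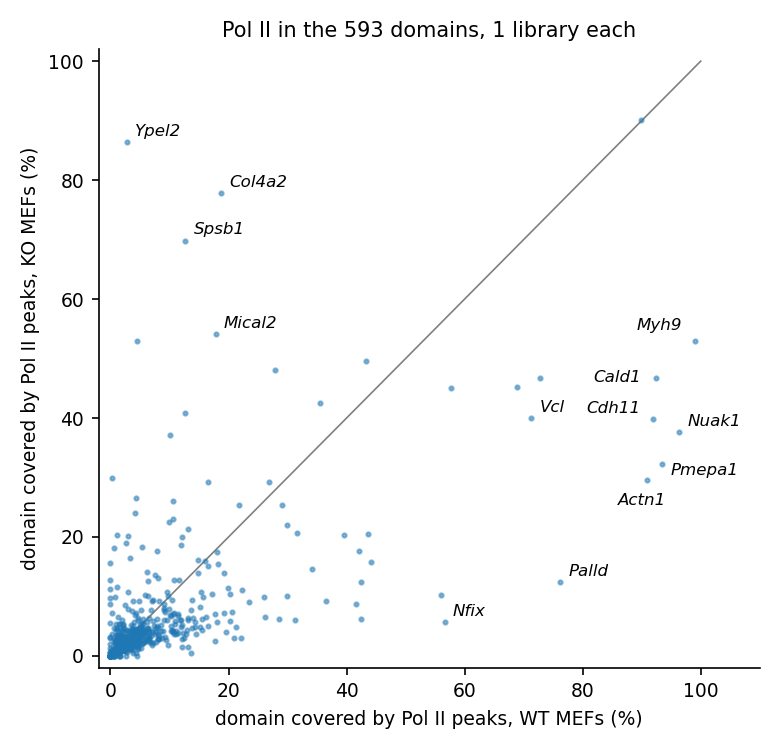
Percent of each of the 593 domains covered by Pol II peaks in WT MEFs (horizontal axis) and KO MEFs (vertical axis), 1 library each; the line marks equal cover and some domains far from it are named. Most domains lie below 20% on both axes; Palld, Pmepa1, Actn1 and Nuak1 lie farthest below the line and Ypel2, Col4a2 and Spsb1 far above.

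Gene groups were set against all long genes with promoter Pol II in KO MEFs, of which 17.8% held a domain. That share differed with gene length, at 10.9% of genes of 50 to 100 kb, 24.0% of 100 to 150 kb and 29.8% of 150 to 200 kb. It did not rise further, at 28.5% of 200 to 300 kb, 24.8% of 300 to 500 kb and 23.7% of 500 kb or more. All long genes with promoter Pol II in KO MEFs had a median length of 92.8 kb. Median length was greater in every list, at 114.1 kb for matrix, 116.3 kb for chromatin regulators, 120.4 kb for growth factors and morphogens, 168.8 kb for actin and adhesion, 197.0 kb for guidance and 201.7 kb for transcription factors, so the lists are not matched to the background in length. Of the actin and adhesion list, 17 of 27 such genes did (63.0%, 42.4 to 80.6%) and 20 of 34 long genes with or without Pol II. The widest were Macf1, Cald1, Lpp (138.0 kb, a focal adhesion LIM protein) and Trio (126.8 kb, a guanine nucleotide exchange factor). Trio was covered to 62.7% in WT MEFs and 74.6% in KO mESCs, Lpp to 16.2% and 11.4%.

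Of the growth factor and morphogen list, 18 of 32 held a domain (56.3%, 37.7 to 73.6%). Igf1r and Tead1 were followed by Tcf7l1, an effector of Wnt signalling (142.0 kb), and Ror2, a Wnt receptor (135.7 kb). The domains of Tcf7l1 and Ror2 were covered to 96.9% and 97.2% in KO mESCs but to 13.4% and 3.10% in WT MEFs. Receptors (Acvr1, Bmpr1a, Bmpr2, Egfr, Fgfr2, Insr, Lrp6, Notch2) and intracellular effectors (Smad3, Smad6, Gli3, Yap1, Wwtr1) were both among the 18.

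Of the transcription factor list, 17 of 35 did (48.6%, 31.4 to 66.0%; Foxp1 is not counted, since its domain was assigned to Gm20696), among them Maml2, Etv6 and Foxn3 and also Nfia, Nfix, Tcf4, Tcf12, Zeb1 and Zeb2. The median KO mESC cover of the list's domains was 4.15%, against 48.4% over all domains, and their median WT MEF cover of 22.2% was near the 23.4% of all. Of the chromatin regulator list, 18 of 42 did (42.9%, 27.7 to 59.0%). Its domains had a median of 51.2% in KO mESCs and 40.2% in WT MEFs. The widest were Arid1b (155.6 kb, a subunit of SWI/SNF complexes), Arid5b (133.9 kb), Jarid2 (119.4 kb, a partner of the Polycomb complex PRC2) and Ncoa2 (114.7 kb, a nuclear receptor coactivator).

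In 2 further lists the share was near that of all such long genes, with wide intervals. Of guidance genes 3 of 14 held a domain (21.4%, 4.66 to 50.8%; Plxna4, Unc5b and Slit3), and of matrix genes 3 of 22 (13.6%, 2.91 to 34.9%), namely Col4a2, the laminin Lamc1 and Col4a3bp, which shares the symbol prefix but is a ceramide transfer protein. Of neuronal adhesion and synapse genes, 32 are long and 5 had Pol II in KO MEFs, and 0 held a domain. The lists were drawn up with earlier results of these data known, and no set test was run.

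**Figure D4:**
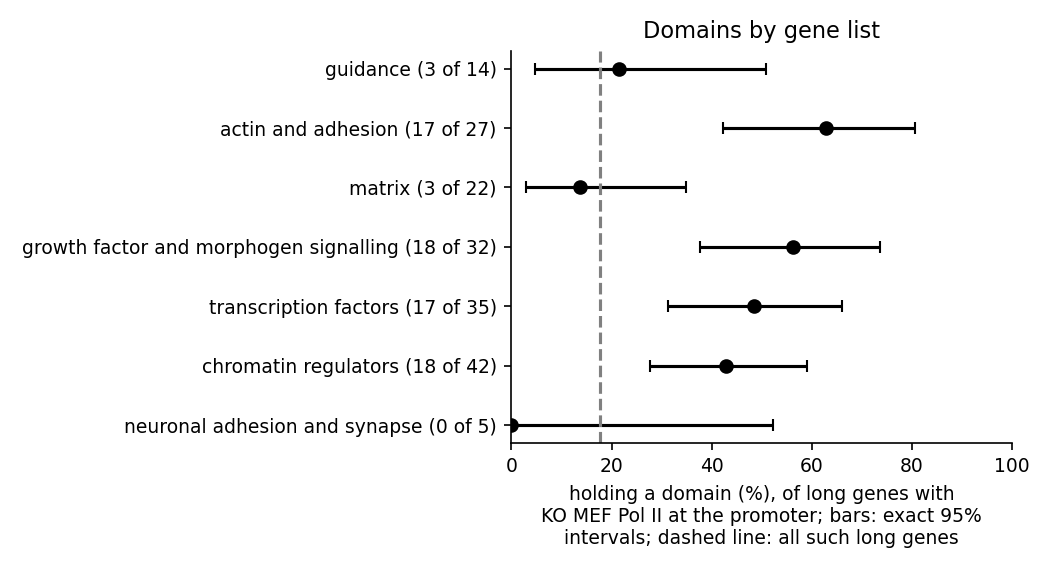
Percent of long genes with KO MEF Pol II at the promoter that hold a domain, by gene list, with exact 95% intervals and, dashed, the 17.8% over all such genes. Actin and adhesion genes are at 63.0%, growth factor and morphogen genes at 56.3% and matrix genes at 13.6%.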

How the data were processed

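Reads were single-end, aligned to mm10 by the authors with Bowtie 1.0.0, and peaks were called with MACS2 2.1.1.20160309 in each library, broad for H2Bub1 and narrow for Pol II. These names come from the study and the submitters' processing notes, and the control and thresholds of the calling are not given in the sources used here. H2Bub1 signal was scaled by the authors by DESeq2 size factors over intergenic regions and Pol II signal by mapped reads, and how this entered the calls is not stated. Per the file headers and format, the deposited values of a peak are its fold enrichment (a linear ratio), the −log10 p and the −log10 q, and for narrow peaks the authors also give a summit offset. Read depth is unknown, and a deeper library gives more and wider peaks.

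Domains and lists were chosen with earlier results of these data known. Peaks of 50 kb or more on autosomes were set against 20807 autosomal protein-coding genes of GENCODE M21 (4787 of 50 kb or more), with the gene sharing most bases taken, and of equal overlaps the shorter record. Cover is the share of bases in peaks of another list, and a call needs 1 bp. Promoters are 1000 bp on either side of the gene start. Percentages have exact Clopper-Pearson 95% intervals, tested on simulated data. With 1 library per group no test was made. Some items are not reported here. Named genes are otherwise those of the 20 widest domains, those next to the width threshold, the extremes of each class and list, and, chosen after their values were seen, the Pol II shifts of 20 points or more, the further domains of a gene, the full KO mESC covers and the printed inner starts. Alternatives were a −log10 q of 3, widths of 40 and 80 kb, peaks joined under 1000 or 2000 bp apart, equal peak numbers per list, cover of 50%, a promoter of 100 bp before to 300 bp after the start, exactly 1 gene, and records named Gm left out. Python 3.11.15, numpy 2.4.6, pandas 2.3.3, scipy 1.17.1 and matplotlib 3.10.9 were used.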

Additional observations from a re-analysis of the deposited data

Results flagged for a closer look

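Chromosome X was outside the rule that chose the domains, and 5 peaks of 50 kb or more were found there in KO MEFs, against 0 in each of the other 3 H2Bub1 lists, whose widest X peaks were 11.97 kb (WT MEFs), 9.26 kb (WT mESCs) and 28.6 kb (KO mESCs). They lay in Tbl1x (99.6 kb, a corepressor subunit), Bcor (69.3 kb, a corepressor), Shroom2 (58.0 kb), Msn (55.0 kb, the membrane-actin linker moesin) and Pls3 (50.25 kb, an actin bundler). WT MEF H2Bub1 covered 10.1%, 0%, 0%, 8.2% and 0% of them, and KO mESC H2Bub1 52.8%, 45.9%, 42.8%, 22.8% and 14.4%. Pol II covered 37.9% of the Msn peak in WT and 17.5% in KO MEFs.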

How the results depend on the processing

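Of 114 values under alternatives, 34 moved beyond the interval of the value reported (for the number of domains, beyond 1.5 times either way), and 16 of the other 80 come from a joining distance that could change nothing. For the Pol II covers this interval counts every base as a trial, so it is very narrow (7.528 to 7.543% in WT MEFs). Nearly any change in these covers therefore counts as moved. Peaks of −log10 q of 3 or more kept 591 domains but gave median covers of 0% (WT MEFs), 1.201% (WT mESCs) and 16.6% (KO mESCs), shares with a peak of 28.1%, 56.4% and 82.4%, and Pol II covers of 7.30% (WT MEFs) and 5.75% (KO MEFs). A width of 80 kb left 196 domains, with a median WT MEF cover of 18.6%, a median KO mESC cover of 43.3%, a WT mESC share of 84.2%, KO mESC promoters at 60.9%, Pol II covers of 6.66% and 5.41%, and 6.06% of long genes with KO MEF Pol II holding a domain. A width of 40 kb gave 915 domains, Pol II covers of 7.73% and 6.10%, and 25.7% of such genes. Counting cover of 50% or more in place of 1 bp gave 22.6%, 13.5% and 49.1%. Equal peak numbers per list gave WT mESC promoters of 57.0% and a WT MEF Pol II cover of 6.38%. The narrower promoter gave 60.7% in WT and 59.2% in KO mESCs, and among domains over exactly 1 gene 98.4% lay inside it. For the narrower and wider thresholds the changed set of domains is the change itself; otherwise the cause was not tested. That distance is 1000 bp, since the smallest gap between KO MEF H2Bub1 peaks is 1193 bp. The next alternatives were chosen after seeing the data. Joining peaks under 2000 bp apart gave 820 domains, a WT MEF share of 89.0% and median of 19.9%, a median KO mESC cover of 40.7%, Pol II covers of 6.96% and 5.43%, and 23.8% of long genes. Leaving out Gm records moved none of 7 values.

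No paired analysis was possible because each group had 1 library and the labels give no replicate numbers. Depth is unknown, and list size differs, which limits any comparison of cover between lists, and KO MEF H2Bub1 cover is fixed by the choice of domains.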

Other observations

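Wide H2Bub1 peaks of the other lists mostly overlapped a KO MEF domain. KO mESCs had 76 autosomal peaks of 50 kb or more, led by Cmip (163.1 kb), Dab2ip (134.9 kb, a Ras GTPase-activating protein), Nxn (127.7 kb) and Agap1 (123.3 kb). Of these, 53 (69.7%) overlapped a KO MEF domain, against 9.45% of all KO mESC H2Bub1 peaks, and the overlapped domains numbered 51 of 593 (8.6%). A wide peak meets a domain more easily than a narrow one. KO MEF H2Bub1 peaks of any width covered 50% or more of 69 of the 76, and 3 had none. This cover was not set against that of narrower KO mESC peaks. The peak over Usp7 (86.7 kb), a deubiquitylase gene, met no domain and was covered to 37.7% by KO MEF H2Bub1, and that over Ksr1 (76.8 kb), a scaffold of Ras signalling, met none and was covered to 71.4%. In WT MEFs the peak of this width over Gsk3b (52.8 kb), a kinase of Wnt signalling, lay whole in a domain. Of the 4 in WT mESCs, those over Actn1 (53.2 kb) and Ago2 (50 kb) lay whole in a domain, 54.2% of that over Kat6b (67.0 kb) did, and that over Jade1 (54.0 kb) met none.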
